A study of Mus musculus with 7 samples.

Results

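A marker rule for natural killer (NK) cells and other innate lymphocytes without CD3 selected 613 of 100676 barcodes (members) within the quality limits of 7 single-cell RNA libraries from mouse livers and liver tumors. They were selected on measured values, so the genes the rule uses are described below and not tested. The other NK receptors and the markers of other cells went against the label for many members of NEJ634 and NEJ709, and values of these libraries are those of the rule, not of NK cells alone. A barcode was kept with over 1000 unique molecular identifiers (UMIs, 1 per captured transcript), at most 20% of them mitochondrial, at least 3 UMIs and 0.1% of base UMIs from Ncr1, Klrb1c, Klre1 and Gzma together, at least 1 UMI of Ncr1, Klrb1c or Klre1, and 0 UMIs of the CD3 chains Cd3d, Cd3e and Cd3g. Base UMIs are those of all genes but mitochondrial and haemoglobin genes, and levels are given as UMIs per 1000000 base UMIs (CPM), summed over the barcodes of a library. Each UMI stands for the 3' end of a transcript, so levels are not divided by gene length. A library is counted as above or below another set of barcodes where the 95% intervals do not overlap (for the low-UMI level, where the lower bound of members exceeds it), unless a difference is given in value.

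The libraries came from a hepatoblastoma model, C57BL/6J mice in which Cre driven by the albumin promoter, active in hepatocytes, switches on a human MYC transgene behind a floxed stop (ABC-Myc), and from littermate livers without tumors. Every library carries the same model label, and that of NEJ709 also names NEJ634; in the study's account NEJ723, NEJ709, NEJ687 and NEJ634 are tumors, and the labels give neither sex nor age. Livers were dissociated with collagenase IV without a sort, and the study kept NK and T cells in 1 shared cluster. Because the labels set no groups, values are given per library, no difference between libraries was tested, and libraries were not treated as replicates. Intervals are exact 95% intervals, Poisson for levels and Clopper-Pearson for shares. They hold the error of counting alone.

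NK cells are lymphocytes that carry no rearranged antigen receptor. They read target cells through germline-encoded receptors, many of them lectin-like proteins of the NK gene complex (the Klr genes), which either activate through adaptors such as Tyrobp and Fcer1g or inhibit on binding MHC class I, as most Ly49 receptors (the Klra genes) do. Activated NK cells release perforin and granzymes and secrete interferon gamma and chemokines. The mouse liver holds circulating NK cells, which depend on the T-box factor Eomes, and resident type 1 innate lymphoid cells (ILC1), usually marked by the integrin Itga1 and by Cxcr6.

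The upstream sequences of the 4 marker genes are shown because these genes define the cells. They are the 250 bases before the most upstream start site of each gene in RefSeq on GRCm38.p6, at chr7:4337465-4337714 (plus strand), chr6:128788642-128788891 (minus strand), chr6:129577963-129578212 (plus strand) and chr13:113100982-113101231 (minus strand). Capitals mark the RUNX core TGTGGT read on either strand.
Ncr1: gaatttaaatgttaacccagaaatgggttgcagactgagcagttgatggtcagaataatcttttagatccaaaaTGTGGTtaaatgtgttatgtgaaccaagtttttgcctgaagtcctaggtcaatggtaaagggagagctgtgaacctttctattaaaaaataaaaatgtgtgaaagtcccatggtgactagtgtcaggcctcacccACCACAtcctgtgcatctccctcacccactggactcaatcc
Klrb1c: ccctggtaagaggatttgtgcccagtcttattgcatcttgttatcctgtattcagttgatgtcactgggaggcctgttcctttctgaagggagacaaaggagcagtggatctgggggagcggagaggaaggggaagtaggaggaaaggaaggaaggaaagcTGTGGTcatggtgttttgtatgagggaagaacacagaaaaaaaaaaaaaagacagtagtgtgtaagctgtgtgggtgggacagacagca
Klre1: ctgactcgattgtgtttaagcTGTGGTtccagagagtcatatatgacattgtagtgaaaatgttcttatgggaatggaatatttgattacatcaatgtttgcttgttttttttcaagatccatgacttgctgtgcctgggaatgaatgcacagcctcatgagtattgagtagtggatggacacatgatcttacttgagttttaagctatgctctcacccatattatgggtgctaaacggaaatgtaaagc
Gzma: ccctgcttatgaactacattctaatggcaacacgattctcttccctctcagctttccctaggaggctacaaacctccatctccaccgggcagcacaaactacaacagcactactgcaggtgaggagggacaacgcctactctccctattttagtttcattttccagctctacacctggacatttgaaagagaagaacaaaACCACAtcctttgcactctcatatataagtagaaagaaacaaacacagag
Each of the 4 held the RUNX core, 2 times in Ncr1, and none held the T-box element GGTGTG on either strand. Over all genes with a promoter in the table, 15.9% held the RUNX core and 18.3% the T-box element within 250 bases. Of the cytotoxic granule and death ligand list, 8 of 15 genes in the table held the RUNX core, of the NK receptor list 6 of 12, and of the Ly49 list 1 of 11. The T-box element was in 7 of 15, 3 of 12 and 0 of 11 genes of these lists. A motif match describes these letters only, and the motifs were chosen with the gene lists known. Runx3, which encodes a RUNX factor of cytotoxic lymphocytes, was at 182 to 695 CPM in members, against 4.90 to 30.8 CPM in low-UMI barcodes and 153 to 299 CPM in T-cell barcodes, and it was not among the genes 2-fold higher than in T-cell barcodes in every library.

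Members were found in every library. There were 86 in NEJ654, 142 in NEJ677, 27 in NEJ638, 162 in NEJ634, 62 in NEJ687, 119 in NEJ723 and 15 in NEJ709. As a share of barcodes within the quality limits they ranged from 0.0698% (0.0391 to 0.115) in NEJ709 to 2.07% (1.75 to 2.44) in NEJ677, with a median of 0.823%. NEJ654 held 1.52%, NEJ723 0.983%, NEJ687 0.823%, NEJ638 0.423% and NEJ634 0.398%. The intervals of NEJ638 and NEJ634 overlapped, as did those of NEJ723 and NEJ687, and those of NEJ654 and NEJ677. NEJ709 had fewer than 20 members, so levels, and shares of members with a UMI of a gene, are given for the other 6 libraries unless NEJ709 is named.

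A share of barcodes depends on how many other barcodes pass. Barcodes within the quality limits numbered 40660 in NEJ634 and 21482 in NEJ709, against 5674 to 12106 in the other libraries. Whether all of them are cells was not tested, so the shares of NEJ634 and NEJ709 may not compare with the others. Against 34 to 456 T-cell barcodes per library (at least 3 UMIs and 0.1% of base UMIs from the CD3 chains and 0 UMIs of Ncr1, Klrb1c and Klre1), members numbered 14.1 per 100 in NEJ638 and 86.2 per 100 in NEJ634. The order of libraries by this ratio is not that by share, since NEJ677 and NEJ654 had 31.1 and 25.7 per 100. Of all 1166 barcodes that met the marker part of the rule, 553 carried at least 1 CD3 UMI. The share without CD3 was 70.1% (63.8 to 76.0) in NEJ634 and 23.1% (15.8 to 31.8) in NEJ638, and it lay between 39.7% and 64.3% in the other libraries.

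**Figure D1:**
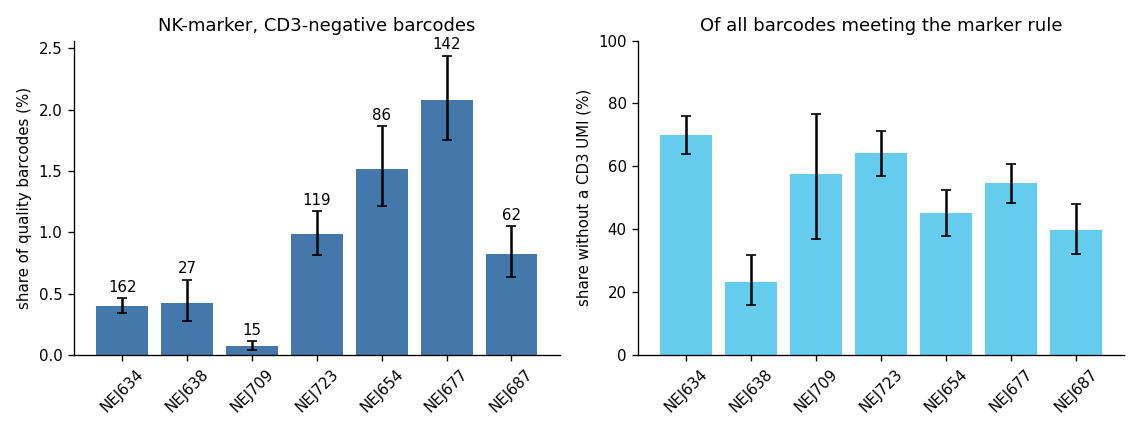
Left, members as a share of barcodes within the quality limits (%), with the number of members above each bar; right, the share of all barcodes meeting the marker rule that carried no CD3 UMI (%). Bars are single libraries with exact 95% intervals, and NEJ677 has the highest member share and NEJ638 the lowest CD3-negative share.

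Members had a median of 1664 to 4740 UMIs per library, and 47507 to 504426 base UMIs lay behind the levels of a library, so that 1 UMI was worth 1.98 CPM in NEJ723 and 21.0 CPM in NEJ638. No member barcode was a member in another library, and 12 of 613 were within the quality limits in another library. Barcodes ranked 45000 to 90000 by UMI count (low-UMI barcodes) gave the level of free RNA. In NEJ634 these held 210 to 952 UMIs, more than in any other library, so that cells may be among them.

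NEJ634 and NEJ709 stood apart in how well the markers separated. The median marker sum of a member was 4 UMIs in both, against 5 in NEJ638, 13 in NEJ723, 23 in NEJ677, 27 in NEJ687 and 29 in NEJ654. Members resting on 1 single UMI of the 3 receptors were 73.5% of those in NEJ634, 66.7% in NEJ709 and 44.4% in NEJ638, but 9.86% to 20.2% in the other 4. Hepatocyte and tumor markers stood at 41.2% of their low-UMI level in members of NEJ634 and 41.7% in NEJ709, against 3.71% to 12.0% elsewhere. Neutrophil markers reached a summed 27.6 CPM in NEJ654, 129 in NEJ677, 21.0 in NEJ638, 17135 in NEJ634, 7468 in NEJ687 and 2884 in NEJ723, against 236 to 24479 CPM in low-UMI, 15.6 to 12396 CPM in T-cell and 79.5 to 8241 CPM in B-cell barcodes. As a share of the low-UMI level of the same library, this was 11.7% in NEJ654, 34.0% in NEJ677, 1.48% in NEJ638, 70.0% in NEJ634, 52.3% in NEJ687, 65.1% in NEJ723 and 66.8% in NEJ709, so the neutrophil ratio was high in NEJ723 and NEJ687 too. In NEJ687 the sum of members stood beside 636 CPM in T-cell and 5876 CPM in B-cell barcodes of that library. Of the 8 genes of that list, 6 had a median above 10 CPM, and S100a8 was at 0 UMIs in NEJ638 alone. Over 1% of base UMIs from B-cell, macrophage, neutrophil, hepatocyte or endothelial markers was found in 73 of 162 members of NEJ634 and 12 of 15 of NEJ709, but in 13 of 436 of the other libraries together. For the main genes, values from the 79 NEJ634 members with at least 5 marker UMIs are therefore given beside those of all 162, and the part of free RNA or other cells in the NEJ634 values was not tested. These 79 were mixed as well. Their hepatocyte and tumor markers stood at 26.1% of the low-UMI level, and neutrophil and macrophage markers summed to 11269 and 1882 CPM. Their values are thus not those of NK cells alone either.

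The 27 NK and Ly49 receptor genes that the rule did not use were checked against the label. Their summed level in members was 3597 CPM in NEJ654, 4033 in NEJ677, 4399 in NEJ638, 1293 in NEJ634, 2745 in NEJ687, 2440.4 in NEJ723 and 889 in NEJ709. In the same libraries B-cell barcodes, which should lack these receptors, were at 46.0 to 162 CPM, low-UMI barcodes at 47.1 to 192 CPM and T-cell barcodes at 479.9 to 1435 CPM. Members of NEJ638, NEJ723, NEJ654, NEJ677 and NEJ687 were thus 33.8 to 51.8 times above their low-UMI level, and those of NEJ634 and NEJ709 only 6.75 and 4.84 times. With each barcode thinned to 1000 UMIs, 58.0% of members in NEJ634 and 88.2% to 96.5% in the 5 others with at least 20 members had a receptor UMI, against 3.36 to 9.43% of B-cell barcodes. In NEJ709 the share was 20% of members and 10.7% of B-cell barcodes. Unthinned, the shares were 74.1% in NEJ634 and 97.7% to 100% in the other 5 at median depths of 1664 to 4418 UMIs, and those of B-cell barcodes 8.93 to 20.3% at 1411 to 2598 UMIs. In NEJ709 the unthinned shares were 60% of members at 4740 UMIs and 30.7% of B-cell barcodes at 3358 UMIs. By this measure members carried NK receptors in 5 libraries, in NEJ634 mainly among the members of higher marker sum, and in NEJ709 in too few members to describe. The T-cell and B-cell barcodes were chosen with 0 UMIs of the 3 rule receptors, and CD3-positive marker barcodes, which were not, had receptor sums of 2296 to 4152 CPM, so the receptor sum does not separate members from CD3-positive cells with the same markers.

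**Figure D2:**
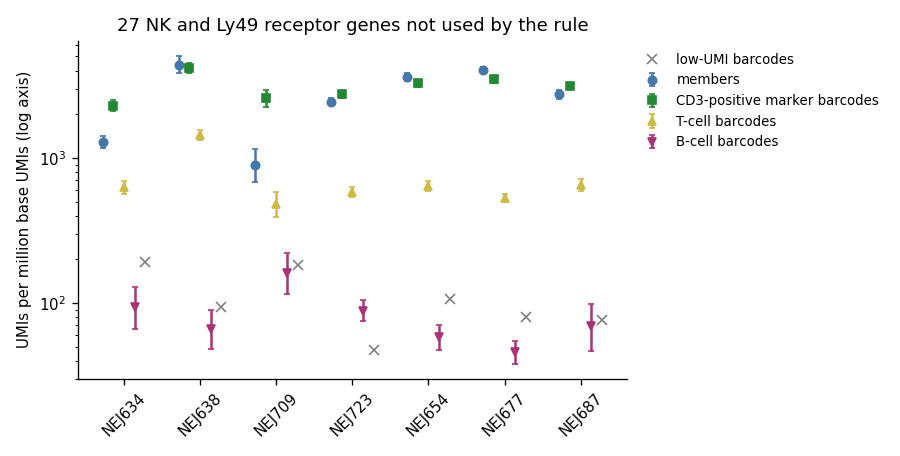
Summed level of 27 NK and Ly49 receptor genes that were not used by the rule (UMIs per 1000000 base UMIs, log axis) in 5 sets of barcodes of each library, with exact 95% Poisson intervals where drawn. Members lie above the T-cell, B-cell and low-UMI barcodes in every library, and well under the CD3-positive marker barcodes in NEJ634 and NEJ709.

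Around the marker limit, values differed by library. Over all libraries, the receptor sum was 1040.4 CPM in 115 barcodes just outside (2 marker UMIs, other conditions met), 1125 CPM in 77 members with 3, 2225 CPM in 51 with 4 and 2943 CPM in 485 with 5 or more. In NEJ634, which held 76 of the 115 barcodes outside and 57 of the 77 just inside, it was 646, 591, 672 and 1728 CPM. Members of NEJ634 at the limit were thus like the barcodes outside it, while in NEJ638, NEJ723 and NEJ654 the 10, 2 and 2 barcodes with 2 UMIs were already at 1812 CPM or more.

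**Figure D3:**
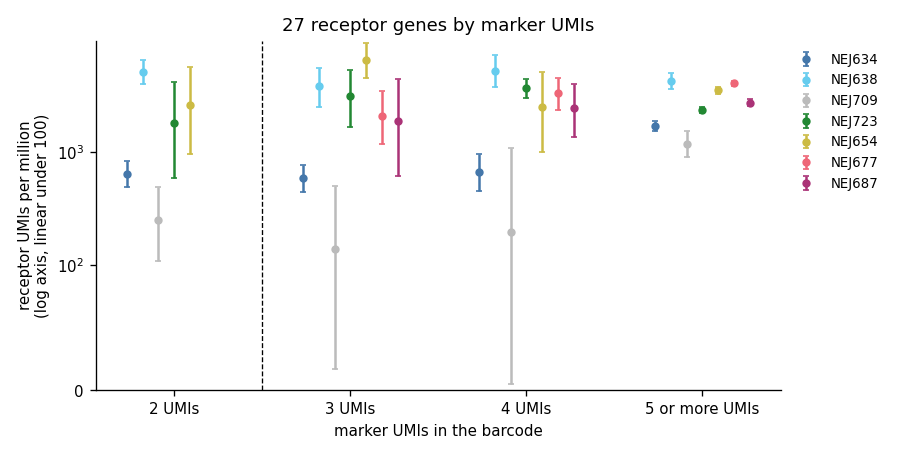
Summed level of the same 27 receptor genes (UMIs per 1000000 base UMIs, log axis that is linear under 100) by the number of marker UMIs in a barcode, with exact 95% Poisson intervals. The dashed line is the limit of the rule. NEJ634 and NEJ709 lie lowest at 3 and 4 UMIs and higher at 5 or more.

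Among the marker genes, Gzma, the granzyme of tryptase activity, gave most marker UMIs and stood at 9068 CPM in NEJ654, 7687 in NEJ677, 3157 in NEJ638, 3143 in NEJ634, 7087 in NEJ687 and 3154 in NEJ723. NEJ634, NEJ638 and NEJ723 had overlapping intervals and lay under the other 3. T-cell barcodes held 68.9 to 2449 CPM and low-UMI barcodes 11.8 to 109.5 CPM. Ncr1, the activating receptor NKp46, was at 111 to 469 CPM, Klrb1c, the NK1.1 antigen, at 210.5 to 420.3 CPM, and Klre1, a lectin-like receptor, at 236 to 653 CPM. At least 2 of these 3 receptors were seen in 346 of 613 members, and 30 had no Gzma UMI.

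Of the 16 other NK receptor genes, 14 had a median over the 6 libraries above 10 CPM and 12 exceeded the low-UMI level in every one of these libraries. Klrd1 (CD94), the shared chain of the CD94/NKG2 receptors, was at 752 CPM in NEJ654, 728 in NEJ677, 1242 in NEJ638, 253 in NEJ634, 649 in NEJ687 and 622 in NEJ723. NEJ638 was highest and NEJ634 lowest, the latter at 336 CPM in members of 5 or more marker UMIs. Klrk1 (NKG2D), which binds stress ligands, stood at 323 CPM in NEJ654, 406 in NEJ677, 399.9 in NEJ638, 93.8 in NEJ634, 234 in NEJ687 and 349 in NEJ723 against 8.85 to 61.8 CPM in T-cell barcodes. NEJ634 was again lowest, also at 145 CPM in members of 5 or more marker UMIs, and the lowest of the other 5 was NEJ687.

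Klrc2 (82.4 to 505 CPM) and Klrc1 (36.9 to 316 CPM), the activating and the inhibitory partner of Klrd1, were each highest in NEJ638. Klrb1b, an inhibitory receptor of the NK1.1 family, was at 96.6 to 526 CPM and Klri2 at 39.8 to 232 CPM, against at most 33.5 and 23.2 CPM in T-cell barcodes. Not all listed receptors set members apart from every other set. Fcgr3 (CD16), the Fc receptor of antibody-dependent killing, was at 21.0 to 82.4 CPM beside 17.0 to 76.6 CPM in low-UMI barcodes. With NEJ638 left out, it was at least 2-fold above T-cell barcodes in every library compared (median log2 ratio 2.28). Cd226 was at 34.1 to 147 CPM, with 41.5 to 136 CPM in T-cell barcodes. Klrg1, a receptor of mature NK cells, ranged from 3.96 CPM in NEJ723 to 62.0 CPM in NEJ677.

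Of 11 Ly49 genes, 7 had a median above 10 CPM, and 5 (Klra3, Klra4, Klra7, Klra8 and Klra9) exceeded the low-UMI level in all 6 libraries. Klra4, an activating member that signals through Tyrobp, had the highest median, at 441 CPM in NEJ654, 434 in NEJ677, 168 in NEJ638, 119 in NEJ634, 247 in NEJ687 and 161 in NEJ723. NEJ654 and NEJ677 had overlapping intervals (363 to 531 and 374 to 500.3) and lay above every other library in value. Klra8, the activating Ly49 known for recognising a cytomegalovirus protein, was at 264 CPM in NEJ654, 413 in NEJ677, 84.2 in NEJ638, 62.5 in NEJ634, 114 in NEJ687 and 61.5 in NEJ723, again highest in NEJ677 and NEJ654. T-cell barcodes held at most 3.19 CPM of Klra4 and 11.2 CPM of Klra8. Klra7, an inhibitory member, was at 88.1 to 264 CPM, with 6.37 to 77.3 CPM in T-cell barcodes. In NEJ634 the 79 members of higher marker sum had 182 CPM of Klra4 and 98.1 CPM of Klra8, still under the values of NEJ654 and NEJ677.

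Ly49 UMIs were then counted per cell. Unthinned, 286 of 613 members had no Ly49 UMI, 144 had UMIs of 1 gene, 83 of 2 and 100 of 3 or more. Klra4 and Klra8 were seen together in 67 members, Klra4 without Klra8 in 80 and Klra8 without Klra4 in 52. With a few UMIs per gene and cell, a gene that is not seen may still be expressed, so these counts do not show which genes a cell combined. After thinning to 1000 UMIs, the share with any Ly49 UMI was 53.5% in NEJ654, 54.2% in NEJ677, 29.6% in NEJ638, 20.4% in NEJ634, 32.3% in NEJ687 and 27.7% in NEJ723, against 1.97 to 14.7% of T-cell and 0 to 1.26% of B-cell barcodes. Among CD3-positive marker barcodes it was 33.3 to 52.1%, so this share does not set members apart from them. The family is uncertain at the level of single genes, since reads of near-identical copies can be split or lost. Of the 50-base windows in the last 500 bases of the longest coding transcript in GENCODE M21, 42.4% were shared with another Ly49 gene for Klra3, 40.8% for Klra9 and 40.6% for Klra10, but 4.66% for Klra4, 13.1% for Klra8 and 0% for Klra7 and Klra5.

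The adaptors below these receptors were abundant as well. Tyrobp (DAP12) stood at 2994 CPM in NEJ654, 2403 in NEJ677, 1158 in NEJ638, 1168 in NEJ634, 2407 in NEJ687 and 1638 in NEJ723 and Fcer1g, the Fc receptor gamma chain, at 2399 CPM in NEJ654, 2270.0 in NEJ677, 1389 in NEJ638, 1106 in NEJ634, 1952 in NEJ687 and 1639 in NEJ723. Members of NEJ634 with 5 or more marker UMIs had 1205 and 1191 CPM. Both genes were lower in T-cell barcodes, at 55.1 to 501 and 63.7 to 526 CPM, but myeloid cells use them too, and low-UMI barcodes held 229 to 895 and 170.0 to 652 CPM. Hcst (DAP10), the adaptor of NKG2D, lay below T-cell barcodes in NEJ634 (205 against 342 CPM) and above them in NEJ677 (817 against 639 CPM), with overlapping intervals in the other 4. The T-cell receptor kinase Lck (51.2 to 236 CPM) lay below T-cell barcodes in 5 of 6 libraries.

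The cytotoxic list had 15 of 17 genes with a median above 10 CPM and 10 above the low-UMI level in every library. Prf1, perforin, was at 276 CPM in NEJ654, 360.4 in NEJ677, 84.2 in NEJ638, 59.7 in NEJ634, 224 in NEJ687 and 67.4 in NEJ723. NEJ677, NEJ654 and NEJ687 lay above NEJ634 and NEJ723, while the interval of NEJ638 (22.9 to 216), which rests on few UMIs, overlapped those of NEJ654 and NEJ687. T-cell barcodes held 5.11 to 43.1 CPM. Gzmb, granzyme B, followed another order of libraries, at 603 CPM in NEJ654, 402 in NEJ677, 1137 in NEJ638, 361 in NEJ634, 1571 in NEJ687 and 139 in NEJ723, with NEJ687 highest in value (interval 1432 to 1719.9) and NEJ723 lowest (108 to 175). T-cell barcodes of the same libraries ran from 32.5 CPM in NEJ723 to 1404 CPM in NEJ687, so the same libraries were at both ends in both cell sets. NEJ634 members of higher marker sum had 74.7 CPM of Prf1 and 486 CPM of Gzmb. Gzmc, granzyme C, was at 217 CPM in NEJ654 and 264 CPM in NEJ687 and at 4.59 to 42.6 CPM in the rest, and 174 UMIs of it came from 46 members. Nkg7, a granule membrane protein, ranged over 546 to 2368 CPM. The granzyme inhibitors Serpinb9 (291 to 989 CPM) and Serpinb6b (214 to 836 CPM) lay above T-cell barcodes (22.6 to 180.3 and 19.7 to 279 CPM) in all 6. Fasl was at 39.6 to 234 CPM and the lysosomal Lamp1, at 21.0 to 347 CPM, exceeded the low-UMI level nowhere.

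Ccl5, a chemokine of effector lymphocytes, was the most abundant gene of the secreted list, at 19228 CPM in NEJ654, 17430.4 in NEJ677, 11346 in NEJ638, 2762 in NEJ634, 9404 in NEJ687 and 4411 in NEJ723. NEJ654 and NEJ677 were highest and NEJ634 lowest, where members of 5 or more marker UMIs had 3792 CPM. T-cell barcodes held 4796 CPM in NEJ654, 6147 in NEJ677, 3637 in NEJ638, 3938 in NEJ634, 11109 in NEJ687 and 1395 in NEJ723, more than members in NEJ634 and NEJ687. Ccl4, a chemokine for monocytes and T cells, was at 1568 CPM in NEJ654, 1907 in NEJ677, 716 in NEJ638, 153 in NEJ634, 224 in NEJ687 and 131 in NEJ723. It exceeded the T-cell barcodes in value in NEJ654, NEJ677, NEJ638 and NEJ723, and in NEJ634 the low-UMI level of 286 CPM was above that of members. Ifng, interferon gamma, was at 626 CPM in NEJ654, 569 in NEJ677, 379 in NEJ638, 31.3 in NEJ634, 201 in NEJ687 and 377 in NEJ723. NEJ634 was lowest for it, also at 46.7 CPM in members of higher marker sum, and low-UMI barcodes held at most 8.05 CPM. T-cell barcodes held 48.2 to 351 CPM of Ifng, more than members in value in NEJ634 and NEJ687. Xcl1, a chemokine for cross-presenting dendritic cells, varied less, at 185 to 659 CPM. T-cell barcodes held 62.0 to 296 CPM of Xcl1, less than members in value in all libraries but NEJ634. Tnf was lower in members (3.34 to 41.6 CPM) than in T-cell barcodes (46.4 to 126 CPM), in 4 of 6 libraries.

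**Figure D4:**
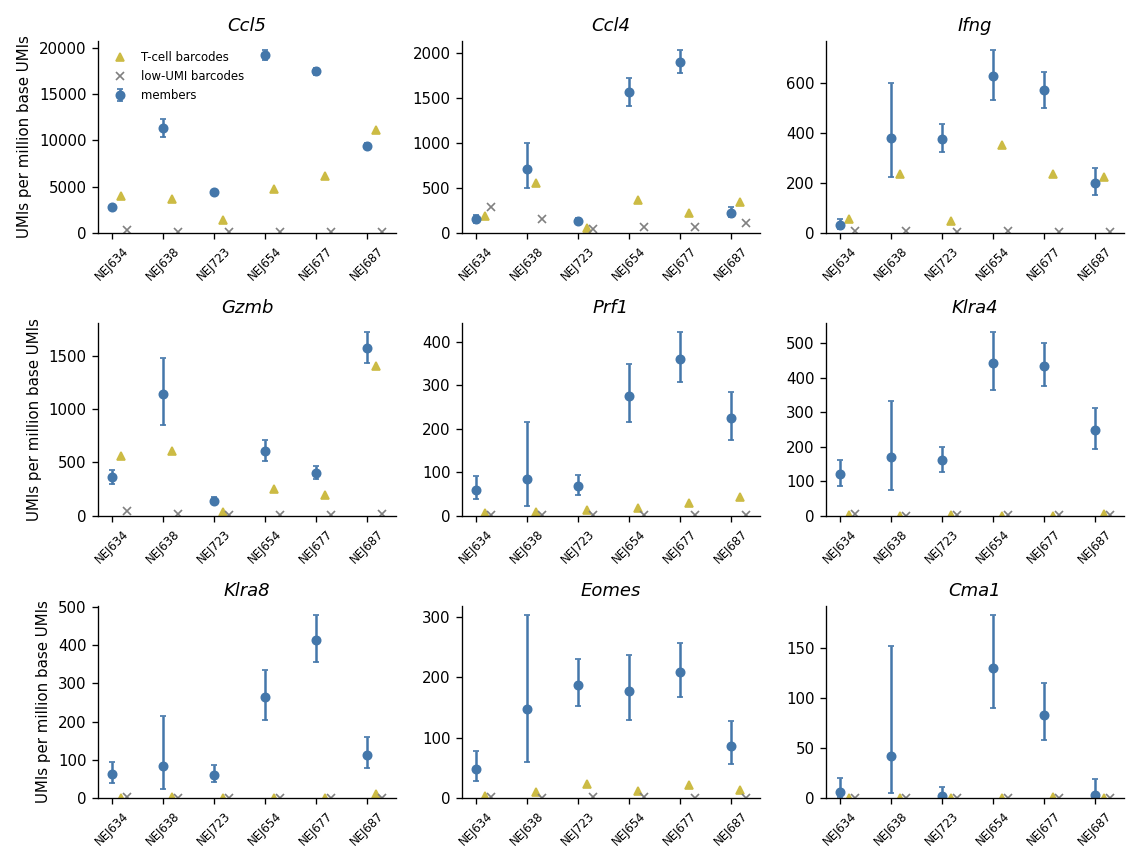
Levels of 9 genes in members (UMIs per 1000000 base UMIs, linear axes from 0) in each library with at least 20 members, with exact 95% Poisson intervals, beside T-cell and low-UMI barcodes. Ccl4, Prf1, Klra4, Klra8 and Cma1 are highest in NEJ654 and NEJ677, Gzmb in NEJ687, and Eomes is above T-cell barcodes in all 6 libraries.

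Cytokine receptors and homing genes differed from those of T-cell barcodes in both directions. Il2rb, the shared chain of the interleukin-2 and interleukin-15 receptors, was at 583 CPM in NEJ654, 737 in NEJ677, 1116 in NEJ638, 352 in NEJ634, 735 in NEJ687 and 634 in NEJ723, above T-cell barcodes (188 to 433 CPM) in 5 of 6 libraries, and at 462 CPM in NEJ634 members of higher marker sum. Il18r1 (22.7 to 282 CPM) and Il18rap (34.1 to 292 CPM), the chains of the interleukin-18 receptor, were lowest in NEJ634. Il7r, needed by T cells and many innate lymphoid cells, was at 21.0 to 80.2 CPM, below T-cell barcodes (139.6 to 376 CPM) in all 6. The chemokine receptor Ccr2 (98.5 to 249.8 CPM) lay above T-cell barcodes in 5 libraries. S1pr1, which guides exit from tissue, lay below them in all 6, at 8.53 to 64.3 against 61.3 to 258 CPM.

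Among the listed transcription factors higher in members, Irf8 and Eomes had the largest ratios to T-cell barcodes. Irf8, which NK cells need for maturation, was at 548 CPM in NEJ654, 764 in NEJ677, 589 in NEJ638, 355 in NEJ634, 652 in NEJ687 and 236 in NEJ723, against 20.4 to 49.4 CPM in T-cell barcodes. Eomes was at 177 CPM in NEJ654, 209 in NEJ677, 147 in NEJ638, 48.3 in NEJ634, 86.9 in NEJ687 and 188 in NEJ723, against 3.40 to 23.6 CPM. After thinning, an Eomes UMI was seen in 1.85% of NEJ634 members and 6.45% to 16.2% in the other 5 libraries, in 0 of 15 in NEJ709, and in 0% of B-cell barcodes; unthinned the member shares were 5.56 to 42.9%. NEJ634 members of higher marker sum had 416 CPM of Irf8 and 74.7 CPM of Eomes. Tbx21 (T-bet) was at 22.7 to 177 CPM, beside 28.9 to 72.1 CPM in T-cell barcodes. Klf2, a factor of circulating lymphocytes, was at 406 CPM in NEJ654, 392 in NEJ677, 84.2 in NEJ638, 71.1 in NEJ634, 127 in NEJ687 and 113 in NEJ723, with NEJ654 and NEJ677 above the other 4 and NEJ634 at 79.4 CPM in members of higher marker sum. T-cell barcodes were likewise highest in these libraries, at 416 CPM in NEJ654, 469 in NEJ677 and 124 to 274 CPM elsewhere. They lay above members in value in every library. Lef1, a T-cell factor, was at 0 to 36.7 CPM, under T-cell barcodes (73.2 to 350.3 CPM) in all 6.

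Lists for circulating NK cells and ILC1 were then set side by side. The 12 circulating NK genes summed to 2123 CPM in NEJ654, 2679 in NEJ677, 1516 in NEJ638, 847 in NEJ634, 1414 in NEJ687 and 854 in NEJ723 in members and to 167 to 293 CPM in T-cell, 343 to 576 CPM in B-cell and 73.5 to 391 CPM in low-UMI barcodes. The 10 ILC1 genes summed to 315 CPM in NEJ654, 271 in NEJ677, 610.4 in NEJ638, 401 in NEJ634, 435 in NEJ687 and 242 in NEJ723 in members, 384 to 783 CPM in T-cell, 225 to 329 CPM in B-cell and 163 to 459.7 CPM in low-UMI barcodes, with B-cell barcodes above members in value in NEJ723. The low-UMI level was above that of members in value in NEJ654 (448 CPM), NEJ677 (355 CPM) and NEJ723 (266 CPM). The 79 NEJ634 members of higher marker sum had 1013 CPM of the circulating NK list and 416 CPM of the ILC1 list. Only 1 ILC1 gene, Tnfsf10 (TRAIL), exceeded the low-UMI level in all 6 libraries, at 19.9 to 84.2 CPM. Itga1 was at 26.7 to 105 CPM beside 6.04 to 45.2 CPM in low-UMI barcodes. Cxcr6 was at 1.98 to 84.2 CPM, against 28.5 to 142 CPM in T-cell barcodes, and Zfp683 (Hobit), a factor of resident lymphocytes, had 1 UMI in 598 members. The mean log2 level of the ILC1 list minus that of the circulating NK list, with 1 CPM added, was negative in all 6, at -2.38 in NEJ654, -2.87 in NEJ677, -0.70 in NEJ638, -0.40 in NEJ634, -0.56 in NEJ687 and -0.68 in NEJ723, and positive in T-cell barcodes (1.57 to 3.12) and low-UMI barcodes (0.34 to 2.03). The size of this difference rests on single genes in 4 of the 6 libraries. With each gene of both lists left out in turn, it ranged from -0.84 to 0.0876 in NEJ634 (the latter without Zfp683), from -1.20 to -0.16 in NEJ638, from -1.03 to -0.0472 in NEJ687 and from -1.09 to -0.26 in NEJ723. It stayed at -1.89 or lower in NEJ654 and -2.59 or lower in NEJ677.

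Cma1, a mast cell protease also found in mature NK cells, varied widely within the circulating NK list. It was at 130.0 CPM (89.5 to 183) in NEJ654, 82.6 CPM (57.9 to 114) in NEJ677 and 42.1 CPM (5.10 to 152) in NEJ638, with 55 members holding its 75 UMIs over the 6 libraries. In NEJ634, NEJ723 and NEJ687 it was at 1.98 to 5.68 CPM, and the basophil and mast cell list as a whole summed to at most 19.9 CPM. S1pr5, an exit receptor of NK cells, was at 43.3 CPM in NEJ654 and 34.4 CPM in NEJ677, at 8.53 CPM in NEJ634 and at 0 UMIs in NEJ638, NEJ723 and NEJ687, where a limit of 3 counts allows up to 63.1, 5.95 and 10.0 CPM. Itga2 (CD49b), an integrin of circulating NK cells, ran from 11.4 CPM in NEJ634 to 131 CPM in NEJ677.

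Per member, UMIs of the circulating NK list minus those of the ILC1 list placed 346 of 613 (56.4%) at the circulating NK end (at least 2 more), 68 (11.1%) at the ILC1 end and 199 between, 81 of them at 0. This is a range and not a set of types, and 184 members had a difference of 1 or 2 UMIs in either direction, next to a limit. The UMIs were not thinned here, so the shares can depend on depth. Median UMIs of members and B-cell barcodes were 2802.5 and 2125 in NEJ654, 2787.5 and 2173 in NEJ677, and 1664 and 1411 in NEJ638. They were 1934.5 and 2283 in NEJ634, 4417.5 and 2299 in NEJ687, and 4326 and 2598 in NEJ723. The share at the circulating NK end was 74.4% in NEJ654, 83.8% in NEJ677, 48.1% in NEJ638, 25.9% in NEJ634, 64.5% in NEJ687, 54.6% in NEJ723 and 20% in NEJ709. In B-cell barcodes, which carry Irf8, it was 10.7 to 27.5%, so the shares of NEJ634 (19.4 to 33.4) and NEJ709 (4.33 to 48.1) overlapped those of cells that are not NK cells. Without NEJ634 the total was 67.4%. At the ILC1 end were 5.88 to 25.9% of members against 18.6 to 44.2% of T-cell barcodes, whose Il7r and Cxcr6 belong to the list, and 2.67 to 13.0% of B-cell barcodes. In NEJ723 the B-cell share (13.0%) was above that of members (5.88%), and in NEJ634 it was close to it (8.18% and 9.26%). The ILC1 share of members lay below that of T-cell barcodes in value in every library, most narrowly in NEJ638 with 25.9% and 28.3%.

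**Figure D5:**
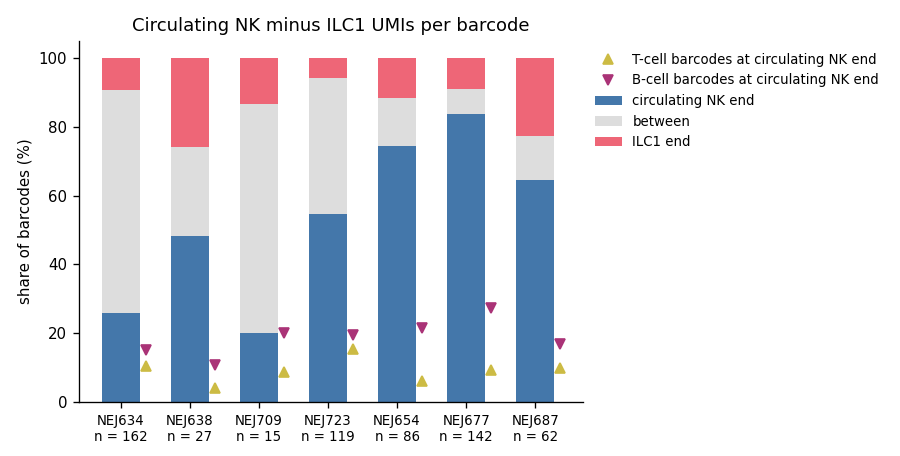
Share of members (%) at the circulating NK end, between, and at the ILC1 end of the UMI difference between both lists, stacked to 100% per library, with the share of T-cell and B-cell barcodes at the circulating NK end as points. NEJ677 has the highest and NEJ709 and NEJ634 the lowest share at the circulating NK end. UMIs were not thinned, and depth differed by library and set.

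Genes outside both lists were read along this range, summed over libraries, which contribute unequally to each end. The cells were sorted on listed genes of the same barcodes, so this is a description. Prf1 was at 247 CPM (220.1 to 276) at the circulating NK end and 50.7 CPM (25.3 to 90.7) at the ILC1 end, and Klra7 at 248 and 55.3 CPM. Gzma was also lower there, going from 6840.3 to 3021 CPM. Higher at the ILC1 end were Gzmc (502 against 47.4 CPM), Xcl1 (944 against 462 CPM), Cd7 (603 against 244 CPM), Klrb1b (364 against 147 CPM) and Ltb (336 against 108 CPM). Ncr1 (282 and 332 CPM), Klrd1, Ifng and Tbx21 had overlapping intervals at both ends. The T-cell receptor chains Trbc1 and Trbc2 were also higher at the ILC1 end, at 493 and 336 CPM against 246 and 96.5 CPM, while those of Trac had overlapping intervals. Some markers of other cells were higher there as well, such as Stab2 (147 against 26.1 CPM) and Alb (1096 against 475 CPM). So were C1qb (189 against 87.8 CPM) and S100a8 (2409 against 1397 CPM), while Ngp (368 against 512 CPM) and Igkc (50.7 against 111 CPM) were lower. The parts of T cells without a CD3 UMI and of RNA from other cells in the ILC1 end were not tested.

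Most genes of the other innate lymphoid classes had few or no UMIs. Of the ILC3 genes, Il23r, Il22, Il17a and Il17f had 0 UMIs in 598 members, where the same limit allows up to 1.59 CPM, and Ccr6 had 2. Of the ILC2 genes, Il5 and Il17rb had 0 UMIs and Il1rl1 and Il13 had 1 each. Areg, a growth factor that NK and T cells also make, had 34 UMIs in 9 members, Calca 8 UMIs in 4 members and Il1r1 of the ILC3 list 13 UMIs in 11 members. Gata3 (28.4 to 126 CPM) and Rora (29.7 to 210.5 CPM) were measured in all 6 libraries, and T cells and NK cells express both. The marker rule asks for a UMI of Ncr1, Klrb1c or Klre1, so it does not look for ILC2 and ILC3 cells, and their number in the liver was not measured here.

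T-cell genes were checked because the rule tests only the 3 CD3 chains. Trac, the constant region of the T-cell receptor alpha chain, was at 0 to 20.7 CPM in members against 342 to 484 CPM in T-cell barcodes and 3.43 to 15.6 CPM in low-UMI barcodes. Cd4 and Cd6 had 0 UMIs in 598 members, Cd5 1, Cd8b1 3 and Cd8a 4. Trbc1 was closer to T-cell barcodes, at 176 to 526 CPM against 412 to 689 CPM, and Trbc2 was at 65.4 to 295 against 758 to 1618 CPM. A UMI of Trac, Trbc1 or Trbc2 was present in 346 of 613 members, but one of Trac in 29, against 951 of 1532 T-cell barcodes. A Trac UMI was also seen in only 118 of 553 CD3-positive marker barcodes. NK cells can transcribe the beta constant region without a rearranged receptor. Whether members with these UMIs are NK cells or T cells without a CD3 UMI was not tested. Other cell types were marked as follows. B-cell genes exceeded the low-UMI level in NEJ654, NEJ677 and NEJ638, most in NEJ638, where they summed to 1347 CPM against 366 CPM, and their part in that library was not tested. Macrophage genes summed to 126 to 2586 CPM against 646 to 6267 CPM, and no gene of that list exceeded the low-UMI level in every library. Endothelial genes exceeded that level in NEJ634 (625 against 330 CPM) and megakaryocyte genes in NEJ654 (110 against 71.6 CPM). In NEJ638, dendritic genes (800 against 563 CPM) and erythroid genes (210.5 against 83.7 CPM) did so. These lists did so in none of the other libraries with at least 20 members.

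Across 4711 genes with at least 10 UMIs in both sets together in each of the 6 libraries, members were at least 2-fold higher than T-cell barcodes in every library for 29 genes (0.616% of those tested) and at least 2-fold lower for 27 (0.573%), with 5 CPM added to both. The rule itself used this contrast, so these are descriptions. The median log2 ratio over all genes tested was 0.03. The 3 NK receptors called of 9 tested were Klrb1b (median log2 ratio 4.38), Klri2 (4.20) and Klrk1 (2.82). Outside the lists, Vegfa, a growth factor for blood vessels, had 3.06, Mef2c 2.80, Spry2 2.75, Tcf4 2.39 and Hhex 2.25. These 5 were named after their values were seen. Of the 19 transcription factors tested, Irf8 (4.10) and Eomes (2.86) were higher and Lef1 (-2.58) and Bcl11b (-3.23) lower. Of 10 T-cell genes tested, 6 were lower, Cd8b1 the most (-5.56). Leaving out NEJ638, the shallowest library, gave 44 and 35 genes of 6343, all 29 and 27 among them, with Klra4, Klra8, Klrb1f, Fcgr3 and Prf1 joining the higher ones. With members of at least 5 marker UMIs, 24 genes were higher, of which 19 were among the 29, and 28 were lower, all 27 among them.

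CD3-positive marker barcodes, which met the same marker rule but carried a CD3 UMI, were the nearest set. The 3014 genes compared had at least 10 UMIs in both sets together in each of the 6 libraries, which left out Klra4. Of these genes, 0 (0%) were at least 2-fold higher in members in all 6 libraries and 6 (0.199%) were lower. The rule split both sets on CD3 UMIs, so these counts are descriptions, and lower T-cell genes are no independent result. The 6 were Trac, Trbc2 and Cd8a, with Cd7 (95.2 to 628 against 435 to 1879 CPM), Klra5 (0 to 42.1 against 72.5 to 322 CPM) and Cd200r1 (2.30 to 21.0 against 22.3 to 82.4 CPM). Klra5, a Ly49 receptor, was thus higher with CD3 in each library. The receptor sum of CD3-positive barcodes was 3258 CPM in NEJ654, 3487 in NEJ677, 4152 in NEJ638, 2296 in NEJ634, 3145 in NEJ687 and 2736 in NEJ723, above that of members in NEJ634 and NEJ687, below it in NEJ677 and with overlapping intervals in NEJ654, NEJ638 and NEJ723. The circulating NK list differed more, at 415 CPM in NEJ654, 767 in NEJ677, 361 in NEJ638, 537 in NEJ634, 732 in NEJ687 and 524 in NEJ723 in CD3-positive barcodes, below members in value in each of these libraries. The ILC1 list of CD3-positive barcodes was above that of members in value in all but NEJ687. It summed to 659 CPM in NEJ654, 679 in NEJ677, 747 in NEJ638, 414 in NEJ634 and 332 in NEJ723. In NEJ687 it was at 303 CPM against 435 CPM in members. The cytotoxic list was higher in CD3-positive barcodes than in members in NEJ634 (5276 against 3402 CPM) and NEJ638 (7732 against 5873 CPM). So it was in NEJ654 (7838 against 6232 CPM) and NEJ677 (6399 against 5731 CPM), with overlapping intervals in NEJ723 and NEJ687. The secreted list was higher in CD3-positive barcodes in NEJ634, NEJ638, NEJ723 and NEJ687, with overlapping intervals in NEJ654 and NEJ677. Neither sum sets members apart from them. Eomes was at 12.0 to 92.0 CPM, Klra4 at 6.44 to 111 CPM and Irf8 at 152 to 403 CPM in them. Trdc, the constant region of the delta chain, was at 42.8 to 251 CPM in CD3-positive barcodes and 19.9 to 57.5 CPM in members. Unthinned, a Trac UMI was seen in 21.3% of CD3-positive barcodes, 62.1% of T-cell barcodes and 4.73% of members over all libraries. For Tyrobp these shares were 88.8%, 23.4% and 93.3%. After thinning, a Gzmb UMI was seen in 63.1% of CD3-positive barcodes and 27.1% of members over all libraries. For Xcl1 these thinned shares were 49.7% and 24.5%, and for Ccl4 41.2% and 23.3%. The thinned share of Prf1 went the other way and was lower in CD3-positive barcodes than in members, at 6.69%. Whether the CD3-positive barcodes are T cells, and of which kind, was not tested.

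Against all other barcodes within the quality limits, the 10 genes of highest median ratio among 752 at 100 CPM or more in each library were, in order, Klra4, Ccl5, Il2rb, Nkg7, Klrd1, Serpinb6b, Serpinb9, Ctsw, Ms4a4b and Xcl1. Ms4a4b, a membrane protein of lymphocytes, was at 321 to 1109 CPM and Ctsw, a cathepsin of cytotoxic cells, at 190.4 to 674 CPM. The 10 genes of widest range between libraries were mostly genes of other cells. S100a8, S100a9, Camp, Ngp and Retnlg, all neutrophil genes, were highest in NEJ634, where S100a8 reached 6184 CPM beside 8917 CPM in low-UMI barcodes. H19, a fetal RNA, was at 1256 CPM in NEJ634 beside 3322 CPM, and Marco, a macrophage receptor, at 489 beside 452 CPM. Ly6d, a B-cell gene, was highest in NEJ638 (674 CPM) and Cd74 too (568 CPM). Xist, the RNA of the silenced X chromosome, was at 1221 CPM in NEJ638, 762 in NEJ634 and 591 in NEJ654 and at 0 UMIs in the other 3. Among genes whose highest library exceeded its low-UMI level at least 3-fold, a limit chosen after seeing the data, Crem stood at 1599.8 CPM in NEJ638 and 113 to 354 CPM elsewhere, and T-cell barcodes likewise at 793 CPM in NEJ638 and 98.4 to 356 CPM elsewhere.

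Lists for cell state differed in how they stood to free RNA. Of 14 cell cycle genes, 0 exceeded the low-UMI level in every library, and their sum did so in value in NEJ654, NEJ677, NEJ638 and NEJ634. Mki67, a mark of dividing cells, was at 55.1 CPM in NEJ654, 66.6 in NEJ677, 168 in NEJ638, 355 in NEJ634, 181 in NEJ687 and 47.6 in NEJ723 beside 28.3 to 470.4 CPM in low-UMI barcodes, and after thinning it was seen in 1.68 to 19.8% of members and 0.357 to 17.0% of B-cell barcodes. Of 11 interferon response genes, 0 did so, and Ifi27l2a lay below T-cell barcodes in 5 of 6 libraries, at 10.0 to 737 against 114 to 1594 CPM. Checkpoint receptors were low, with Tigit at 5.68 to 42.1 CPM, Lag3 at 0 to 42.1 CPM and Pdcd1 at 2 UMIs in 598 members. Of the 7 immature NK genes, 5 exceeded the low-UMI level in all 6 libraries, and the list summed to 886 to 1999 CPM against 54.3 to 214 CPM. In T-cell barcodes it summed to 1215 to 2248 CPM, above members in all libraries but NEJ687, so it does not set members apart. Emb (130.0 to 832 CPM, lowest in NEJ654) and Cd27 (54.0 to 202 CPM) of that list were each below T-cell barcodes in value in 4 of 6 libraries. The 12 immediate early genes summed to more than in low-UMI barcodes in all libraries but NEJ634, where they were at 2564 against 2989 CPM. Junb, an immediate early gene that tissue dissociation can raise, was at 2438 CPM in NEJ654, 2339 in NEJ677, 1705 in NEJ638, 659 in NEJ634, 2019 in NEJ687 and 1469 in NEJ723, and Hspa1b, a heat shock gene, at 213 to 1055 CPM with NEJ723 highest.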

How the data were processed

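Single-cell RNA of 7 liver libraries was measured with a 3' droplet kit. The series' design text speaks of nuclei and the methods of dissociated cells, which bears on mitochondrial and intronic UMIs and was not settled here. The deposited matrices hold raw UMI counts per gene and barcode, which the authors made with Cell Ranger without a cell filter. The file headers name release 4, while the submitters' processing notes name 6.0 and the methods add introns; the genome build is not given in the sources used here. Barcodes entered with more than 1000 UMIs, of which 20% or fewer were mitochondrial.

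Members were chosen by the marker rule in the report, and the members and gene lists were chosen with earlier results of these data known. No doublet caller was run. Of 613 members, 16 had over 3 times their library's median UMIs, and leaving out 98 members with over 1% of base UMIs from other cells' markers is an alternative. B-cell barcodes had at least 3 UMIs and 0.1% of base UMIs from Cd79a, Cd79b and Ms4a1, and no UMI of the CD3 chains, Ncr1, Klrb1c or Klre1. They were added after seeing the data. Low-UMI barcodes within the quality limits in another library were left out.

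No statistical test was made, since the labels give 0 groups. Genes outside the rule were named where listed (267 genes in 29 lists: counts above 10 CPM, the 2 to 4 of highest median, those over 4-fold between libraries), where among the 10 of highest ratio over other barcodes at 100 CPM, or among the 10 of widest range at 200 CPM. Exceptions are stated. On simulated counts for the comparison with T-cell barcodes (4467 genes), 98 of 100 genes raised 8-fold and 76 of 100 lowered 8-fold were called, and 0 unchanged genes. Both sets were drawn as Poisson counts from a pooled profile of each library. They held no spread between cells and no difference in free RNA or mixed barcodes. The simulation therefore does not give the rate of false calls in the measured data. Values of some listed genes are not reported here. Base UMIs behind levels ranged from 47507 to 504426 per library. Promoters came from RefSeq (GRCm38.p6), where 204 of 267 listed genes matched. Python 3.11.15, numpy 2.4.6, scipy 1.17.1, pandas 2.3.3 and matplotlib 3.10.9 were used.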

Additional observations from a re-analysis of the deposited data

Results flagged for a closer look

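Barcodes of 501 to 1000 UMIs were outside the quality limits. In 28 of them that met the other parts of the rule, the 27 receptor genes stood at 2802 CPM (2086 to 3684; 51 UMIs), above the low-UMI level of every library. Of these barcodes, 18 came from NEJ634, where the level was 602 CPM (242 to 1240) beside 192 CPM in low-UMI barcodes, 5 from NEJ654 (9666 CPM), 4 from NEJ677 (4605 CPM) and 1 from NEJ723 (0 UMIs). They were marked as a signal in data that the report does not use.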

How the results depend on the processing

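No paired analysis was possible because the labels give no groups or replicate numbers. The number of members moved from 613 to 233 with Gzma left out of the marker sum, to 267 without any UMI of Trac, Trbc1 or Trbc2 and to 1166 with any number of CD3 UMIs, and the median share from 0.823% to 0.305%, 0.266% and 1.83%. With total UMIs over 500 the median share was 0.509%. The other alternatives gave 478 to 728 members. Member shares of single libraries moved outside their main interval in 37 of 70 alternatives. Summed levels of the lists checked did so in 17 of 78 (ILC1 list) to 41 of 78 (secreted list). For the cytotoxic list it was 27 and for the NK receptor list 23 of 78. Shares of members with a UMI did so in 94 of 150 when not thinned. With at least 5 marker UMIs, chosen for these results after seeing the data, the circulating NK end held 66.6% and the median ILC1 minus circulating NK difference was -1.62 against -0.69. Without NEJ634, 67.4% were at that end. Of 144 alternative values of this difference, 1 changed sign, that of NEJ634 without Zfp683 (0.0876). Against T-cell barcodes, 47 genes were higher with no filter on low counts, and leaving out 1 library gave 29 to 44 higher and 27 to 35 lower. Against CD3-positive marker barcodes it gave 0 to 1 higher and 6 to 11 lower (11 without NEJ687), and 1 was higher with a pseudocount of 1 CPM. The cause of these shifts was not tested. Depth limits NEJ638 and NEJ709 most, with 27 and 15 members.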
